A study of Mus musculus with 97 samples.

Results

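Green, GFP-positive cells sorted from the cortex of embryonic day 13 (E13) mouse embryos without Cdk5r1 were compared with cells of the same kind from control embryos. The comparison holds 13 of the 97 libraries of the series, chosen by genotype, age and alignment, and 81 of the 97 belong to the Cdk5r1 experiment. All animals were of the CD1 strain. In the 5 KO-Cdk5r1-MADM libraries the knockout allele sits on both copies of chromosome 11, beside the GT and the TG cassette of MADM-11, so that all cells of the embryo are mutant whether labelled or not. The 8 control libraries carry MADM-11 GT/TG;Emx1-Cre with both copies of Cdk5r1 intact, and control replicate 4 was left out because 26.9% of its reads aligned to a single place, where at least 50% was asked and the kept libraries had 69.3% or more. Both groups carry the pair of MADM (mosaic analysis with double markers) reporter cassettes, which turn green or red only in cells in which Cre acts, and Emx1-Cre acts in the progenitors of the dorsal telencephalon and their progeny. Each library came from 2000 sorted cells of 1 cortex and was made with SMART-Seq v2 from polyA RNA, without molecular identifiers, so that reads are not independent molecules.

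p35, the product of Cdk5r1, is the main neuronal activator of the kinase CDK5, which is inactive without p35 or its relative p39. In newborn projection neurons the kinase phosphorylates proteins of the microtubule, actin and adhesion machinery, and the cortex of mice without p35 is known for layers in a disturbed order. At E13 the dorsal cortex is made of radial glia, which divide at the ventricle, of intermediate progenitors and of the earliest projection neurons, and the comparison asks which sets of genes already differ at an age ahead of the migration defects that the study follows at later ages.

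The total on genes lay between 1218697 and 4550134 reads in the control libraries (median 4167024.5) and was 4748165, 3980687, 4790822, 4877750 and 3787965 reads in KO replicates 1 to 5. KO replicates 1, 3 and 4 were deeper than each control library, and the group difference had an exact permutation p of 0.135 (two-sided). The number of genes with at least 1 read was 16847 at the lowest, 19197 at the median and 20423 at the highest in control and 19855, 19968, 20105, 20268 and 20086 in the KO libraries (exact permutation p = 0.0287, two-sided, 0.144 when adjusted over 5 library measures). The markers fit the labelled tissue: the radial glia list summed to 10084 CPM (counts scaled to library size) at the control median and the projection neuron list to 8022, against 14.9 for endothelial markers and 10.6 for markers of microglia and macrophages.

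Cdk5r1 was at 14.5 CPM in the lowest control library, at 65.6 in the median one and at 130 in the highest, and at 10.7, 16.8, 16.8, 28.0 and 12.2 CPM in KO replicates 1 to 5. The lowest of these control values belongs to the library labelled control replicate 2. Its 67 reads on the gene put it inside the range of the KO libraries, at 19.7% of the mean of the other 7 control libraries, the next of which had 37.4 CPM, so its Cdk5r1 level goes against its label and each result is given with and without it. With it the groups overlapped. It is set aside for its Cdk5r1 level, so the separation of the groups in Cdk5r1 without it follows from that choice and is no further result of the comparison.

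The KO mean was 16.9 ± 6.78 CPM (SD, n = 5) and the control mean 66.1 ± 34.2 (SD, n = 8), so that 25.6% of the control level was left, or 23.0% without control replicate 2. The exact permutation test gave p = 0.00855 (two-sided, n = 8 and 5). In edgeR the log2 fold change of Cdk5r1 was -1.96 (SE 0.38) with an adjusted p of 0.215, which does not pass 0.05. Without control replicate 2 the log2 fold change was -2.13 (SE 0.28), with an adjusted p of 0.00213 that is conditioned on the removal of a library picked by its Cdk5r1 level and is not used as a test. Over 29 other settings the log2 fold change kept its sign and the adjusted p ran from 5.7e-12, in a setting without that library, to 0.944.

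**Figure D1:**
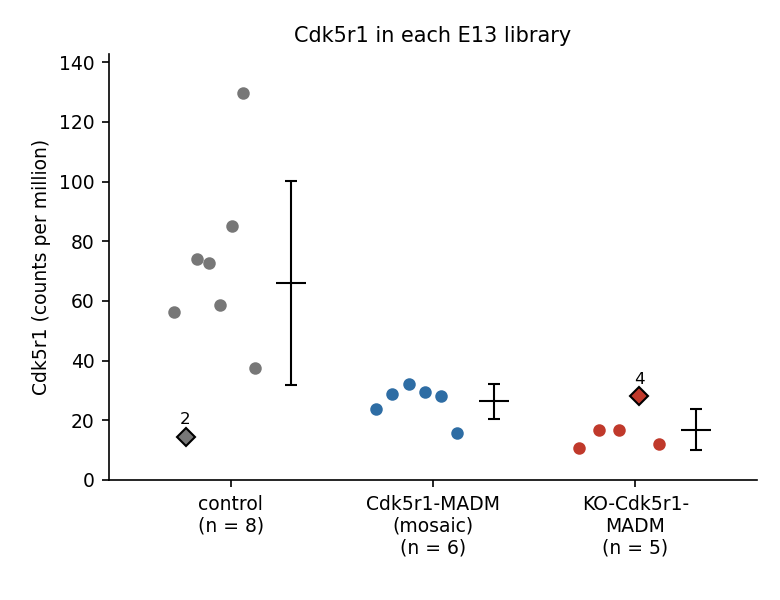
Cdk5r1 in each E13 library, in CPM, with the group mean and SD beside the points and with control replicate 2 and KO replicate 4 as diamonds. Control replicate 2, at 14.5, sits among the KO libraries, which run from 10.7 to 28.0.

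On GRCm38 the gene (ENSMUSG00000048895.13) lies on chromosome 11 from 80477023 to 80481184, on the plus strand. The deletion of the knockout allele removes 1306 of its 4162 exon bases, with all 921 coding bases, and leaves exon sequence on which reads can still fall. If the reads of the deleted bases alone were lost, the log2 fold change would be -0.54. The KO libraries held 51, 68, 78, 136 and 46 reads on the gene. Green cells of the 6 usable E13 Cdk5r1-MADM libraries, which are homozygous mutant among heterozygous neighbours, had 15.8 CPM at the lowest, 28.5 at the median and 32.2 at the highest, beside the same control libraries. At the later ages, in separate libraries, Cdk5r1 fell by 1.86 on the log2 scale at E16 (adjusted p = 5.5e-15, edgeR) and by 1.23 at P0 (adjusted p = 2.5e-07).

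Few single genes passed an adjusted p under 0.05 at E13 with all libraries in. With all 13 libraries edgeR called 0 higher and 0 lower of 12401 genes at an adjusted p under 0.05 (0%), limma voom also called 0, and DESeq2 called 4, all lower, with Cdk5r1, Wdr47 and Riok3 among them. At an unadjusted p under 0.05 there were 380 higher genes (3.06% of those tested) and 520 lower genes (4.19%), 900 in all where 5% of the genes tested is 620.05. With only the 13 libraries in the fit there were 635, where 5% is 608.45, so the excess over 5% was found with the mosaic libraries in the fit and was small without them. Without control replicate 2 the edgeR count was 0 higher and 1 lower (0.00808%), the lower gene being Cdk5r1, by whose level the library was picked, with 419 higher (3.39%) and 644 lower (5.21%) at the unadjusted threshold. DESeq2 without that library called 9 genes, 8 of them lower, and limma voom called 2, Cdk5r1 and Wdr47.

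The number of calls depended more on KO replicate 4 than on control replicate 2. Without it edgeR called 3 higher genes (0.0242%) and 36 lower genes (0.291%) of 12375, and 553 higher (4.47%) and 918 lower (7.42%) had an unadjusted p under 0.05. For 32 of these 39 genes KO replicate 4 lay within the range of the control libraries, and 37 of them had an unadjusted p under 0.05 with all libraries in. This library had the highest Cdk5r1 level of the 5, and its part in the result beyond these values was not tested. With control replicate 2 left out as well, 44 genes were called, 36 of which were among the 39.

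The lower genes were led by Wdr47, whose protein binds microtubules and is needed for the development of the cortex. It had 56.5 CPM in the lowest control library, 69.1 in the median one and 96.4 in the highest, against 28.6, 42.3, 29.3, 56.2 and 43.5 CPM in KO replicates 1 to 5, so that each KO library lay below each control library. Its log2 fold change was -0.82 (SE 0.15, adjusted p = 0.178 in edgeR, 0.000698 in DESeq2), and -0.86 without control replicate 2. Riok3, an atypical kinase of the RIO family, had 60.3, 73.7 and 95.9 CPM as the lowest, median and highest control value, and 45.0, 54.9, 44.4, 52.3 and 53 CPM in the KO libraries, again without overlap (log2 fold change -0.62, SE 0.12). Bdh1, a mitochondrial enzyme of ketone body metabolism, had 104, 126 and 143 CPM in control against 65.4, 82.9, 94.4, 112 and 73.7 in KO, where KO replicate 4 lay above the lowest control library, replicate 2 (log2 fold change -0.53, SE 0.13). Of all 12401 genes, 7 were lower (0.0564%) and 11 higher (0.0887%) without any overlap of the libraries, and 14 (0.113%) and 19 (0.153%) when control replicate 2 was set aside. For a gene without a difference, 1 of the 1287 arrangements of the libraries gives such a gap in a given direction, a share of 0.000777. Without control replicate 2 it is 1 of 792, a share of 0.00126. The counts are near these shares, so a lack of overlap in a single gene is not by itself a mark of a difference.

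Further genes were among the 10 with the smallest p in the lower direction. Nptx1, a secreted pentraxin that gathers glutamate receptors at synapses, had a log2 fold change of -1.07 (SE 0.27), Lrrn3, a leucine-rich repeat protein of the neuronal membrane, -0.73 (SE 0.18), and Ttll1, a subunit of a tubulin polyglutamylase, -0.52 (SE 0.13). Ankrd6, which acts in WNT and planar polarity signalling, stood at -0.55. Adjusted p was 0.534 or more for each of these genes and for Bdh1 in edgeR, and none passed.

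In the higher direction the smallest p went to Uncx, a homeobox transcription factor. It had 2.31, 3.36 and 5.74 CPM as the lowest, median and highest control value and 10.5, 6.19, 8.62, 4.53 and 13.8 CPM in KO replicates 1 to 5 (log2 fold change 1.20, SE 0.27, adjusted p = 0.395). Six5, another homeobox factor, had 9.52, 13.6 and 20.9 CPM in control and 28.2, 23.3, 23.7, 24.3 and 22.3 CPM in KO, with no overlap (log2 fold change 0.74, SE 0.20). Ccne1, the cyclin that drives entry into S phase, had 68.5, 71.7 and 88.1 CPM in control and 130, 92.3, 116, 70.4 and 102 CPM in KO, with KO replicate 4 below the control median (log2 fold change 0.45, SE 0.12). Npm3, a nucleolar histone chaperone, stood at 1.48, Khk, the first enzyme of fructose breakdown, at 1.48 and Lsamp, an adhesion molecule of the limbic system, at 0.91 on the log2 scale. None of the 10 genes passed with all libraries, and Uncx and Ccne1 had an adjusted p of 0.0306 and 0.0362 in the set without KO replicate 4, which lay nearest to control for both.

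**Figure D2:**
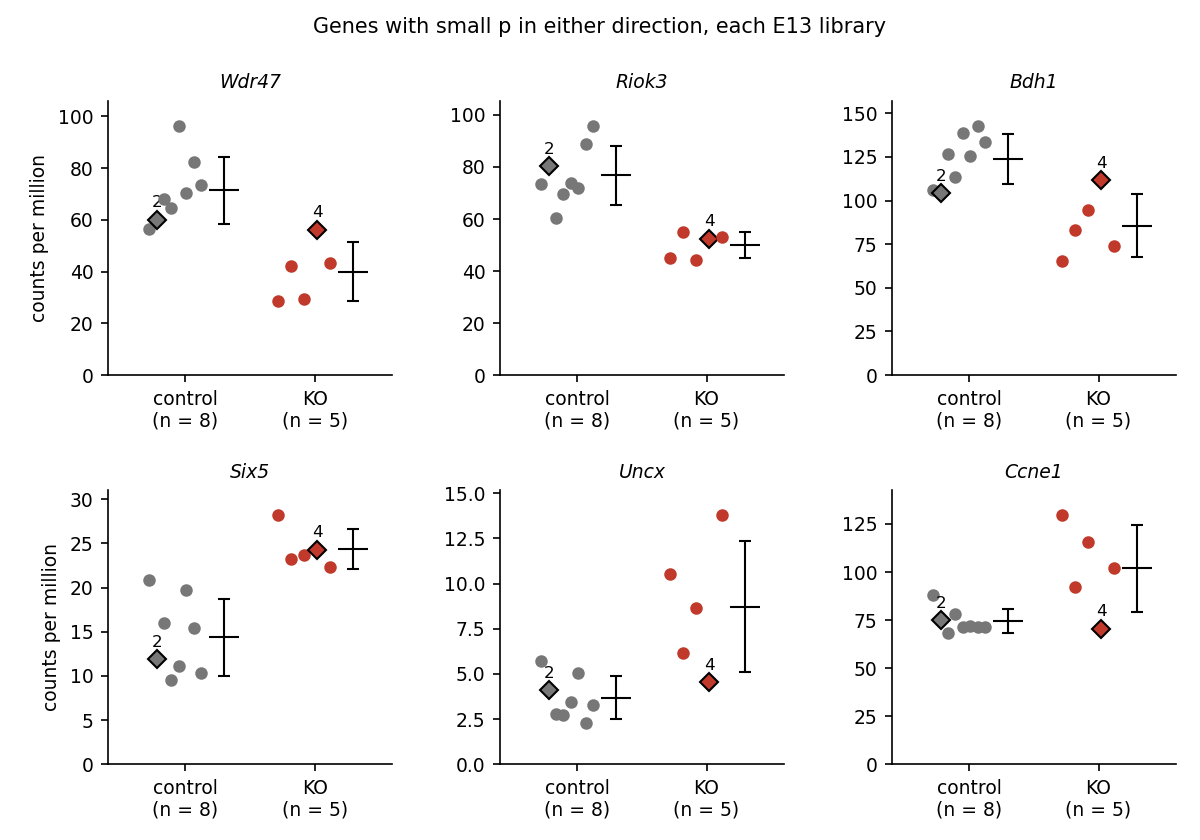
Levels of 3 genes lower and 3 genes higher in KO, in CPM for each E13 library, with the mean and SD beside the points and control replicate 2 and KO replicate 4 as diamonds. Wdr47, Riok3 and Six5 do not overlap between the groups, while Bdh1, Uncx and Ccne1 overlap through KO replicate 4.

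Lists of neuronal genes had medians slightly below 0, and no joint shift of a list was tested. Library by library, KO replicate 4 alone of the KO libraries had a median log2 deviation from the control median of each gene above 0, for projection neuron (0.11), synaptic vesicle (0.17), microtubule (0.07) and axon guidance genes (0.26). In bulk samples fewer cells of a type and less RNA per cell cannot be told apart, so each list describes the sorted pool. Beside all genes tested, whose median log2 fold change was -0.00 with 50.2% of genes lower, the list of early projection neurons had a median of -0.15 with 27 of 40 genes lower (0.05 with the ratio of neuronal to progenitor genes as covariate, described further on), and 6 of 40 had an unadjusted p under 0.05, all lower, where 4.19% of all genes were lower. Without control replicate 2 the median was -0.16 and 13 of 40 had such a p, again all lower, where 5.21% of all genes were lower in that fit. Neurod6, a transcription factor of newborn excitatory neurons and the most abundant member per length, had 430, 541 and 706 CPM as the lowest, median and highest control value and 300, 398, 451, 535 and 434 CPM in KO (log2 fold change -0.39, SE 0.14). Runx1t1, a corepressor, stood at -0.60, Mef2c, an activity-dependent transcription factor, at -0.39 and Nsg1, an endosomal protein of neurons, at -0.27, and 0 of the 40 members passed the adjusted threshold.

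Synaptic vesicle genes had the lowest median of the pathway lists, -0.20 with all libraries, -0.25 without control replicate 2 and 0.00 with the ratio covariate. Of 44 members 32 were lower, 8 at an unadjusted p under 0.05 against 4.19% of all genes, and 0 were higher at that threshold. The list summed to 2240 CPM in the lowest control library, which was replicate 2, to 2468 in the median one and to 2927 in the highest, and to 1952, 2125, 2240, 2620 and 2223 CPM in KO replicates 1 to 5. KO replicates 1, 2, 3 and 5 lay at or below the lowest control sum, and KO replicate 4 lay above the control median. Svop, a transporter-like vesicle protein, had a log2 fold change of -0.48 (SE 0.15). Rab3a, the vesicle GTPase and the most abundant member per length, stood at -0.29.

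Genes of the cytoskeleton and of guidance, through which the kinase acts on migration, were lower in part. Of 50 microtubule genes 40 were lower, with a median of -0.12 (-0.13 without control replicate 2), 6 lower and 1 higher at an unadjusted p under 0.05, where 4.19% of all genes were lower and 3.06% higher. That background holds for the next lists as well. Tubb3, the neuronal beta tubulin, stood at -0.26 (SE 0.10) and Tuba1a, the main alpha tubulin of newborn neurons, at -0.24 (SE 0.09), whereas Tuba1b, an alpha tubulin of dividing cells, stood at 0.26 (SE 0.11). Dync1li2, a light intermediate chain of the dynein motor, stood at -0.36, and Tubb5, the most abundant of the tubulins per length, at -0.06. The axon guidance list had a median of -0.13 in 62 genes, 7 lower and 1 higher at the unadjusted threshold (with the ratio covariate -0.03, 32 of 62 lower), with Crmp1, a semaphorin mediator, at -0.41, Nrp2, a semaphorin receptor, at -0.54 and Efna4, an ephrin, at 0.44. The adhesion list had a median of -0.08 in 98 genes (0.00 with a replicate block), 11 lower and 4 higher, with Celsr3, a seven-pass cadherin of axon tracts, at -0.54 and Nrcam, a neuronal adhesion molecule, at -0.47.

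The genes around p35 itself differed little. Of 28 genes of the p35 and CDK5 pathway 26 were tested, with a median of -0.04 (-0.06 without control replicate 2) and 18 lower. The kinase Cdk5 had 60.3, 91.1 and 106 CPM in control and 78.1, 82.9, 105, 86.5 and 85.1 CPM in KO, a log2 fold change of 0.00 (SE 0.11). Cdk5r2, which encodes the alternative activator p39, was near the floor of measurement, with 0.86, 2.81 and 5.27 CPM in control and 3.58, 1.48, 2.59, 1.44 and 3.98 CPM in KO (log2 fold change -0.29, SE 0.40). Beside Cdk5r1, the deleted gene, 3 of the other 25 members had an unadjusted p under 0.05, all lower, where 4.19% of all genes were lower: Ppp1r1b, a phosphatase inhibitor that CDK5 phosphorylates, at -0.84 (SE 0.26), Dcx, the microtubule protein doublecortin, at -0.47 (SE 0.19), and Mapt, which encodes tau, at -0.32 (SE 0.14). Pafah1b1, which encodes the dynein regulator LIS1, stood at 0.12, Ndel1, its CDK5-phosphorylated partner, at -0.06 and Ctnnb1, which encodes beta-catenin, at 0.01. None of these 25 passed the adjusted threshold with or without control replicate 2. The Reelin pathway, a separate signal for radial migration, had a median of 0.04 in 18 genes (0.00 without control replicate 2, -0.03 without KO replicate 4), with 0 at an unadjusted p under 0.05.

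Of the 2 progenitor lists, radial glia had a median slightly above 0 and intermediate progenitors did not. The radial glia list had a median of 0.08 with and without control replicate 2, with 18 of 29 genes higher and 11 lower, 3 higher and 0 lower at an unadjusted p under 0.05, where 3.06% of all genes were higher. It summed to 8180, 10084 and 11188 CPM in the lowest, median and highest control library and to 11309, 11187, 12330, 11113 and 10997 CPM in KO replicates 1 to 5, each above the control median. Hes1, the Notch target that keeps radial glia undifferentiated, had 445, 621 and 779 CPM in control and 799, 810, 875, 689 and 735 CPM in KO (log2 fold change 0.33, SE 0.10). Dmrt3, a patterning factor of the medial cortex, stood at 0.48 and Sox1, a neural progenitor factor, at 0.63. The list of intermediate progenitors, whose defining gene Eomes belongs to it, had a median of -0.01 in 14 genes, 7 lower and 7 higher, with 0 at the unadjusted threshold and a sign that changed in 12 of 29 other settings.

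Genes of division had medians above 0. Of 32 S-phase genes 25 were higher (median 0.10, 0.11 without control replicate 2), 4 of them at an unadjusted p under 0.05 (5 without control replicate 2), and of 40 mitotic genes 30 were higher (median 0.12 and 0.09), 5 of them at that threshold (3 without control replicate 2), where 3.06% of all genes were higher (3.39% without that library), with 0 lower in either list, and both medians were below 0 with the ratio covariate. Tyms, which makes thymidylate, stood at 0.23 and Dut, which clears dUTP, at 0.27, while Birc5, a part of the chromosomal passenger complex, stood at 0.29 and Ube2c, a ubiquitin-conjugating enzyme of mitotic exit, at 0.26. KO replicate 4 differed from the other KO libraries here: its mitotic sum of 4651 CPM was below the lowest control sum of 4667, where the other KO libraries had 6270, 6076, 6210 and 5697, all within the control range, whose highest sum was 6411.

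Ribosomal protein genes were higher in number rather than in size: 70 of 78 had a positive log2 fold change, with a median of 0.13 (0.11 without control replicate 2), and 7 were higher and 1 lower at an unadjusted p under 0.05. They summed to 23035, 21055, 28647, 18684 and 24341 CPM in KO replicates 1 to 5 and to 18752, 20535 and 23987 in the lowest, median and highest control library, so that the groups overlapped and KO replicate 4 had the lowest sum of all. The lower gene was Rpl29, at -1.34 (SE 0.38), whose control levels of 8.72, 25.7 and 58.7 CPM were spread more widely than those of KO, which ran from 9.65 to 15.1. Nuclear genes of oxidative phosphorylation had a median of 0.06 (64 of 84 higher, 2 at the unadjusted threshold, a smaller share than the 3.06% of all genes) and glycolysis genes of 0.12 (22 of 34 higher, 5 higher and 1 lower at that threshold), among them Pgk1 at 0.48 and Ldha at 0.31, both enzymes of glycolysis.

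**Figure D3:**
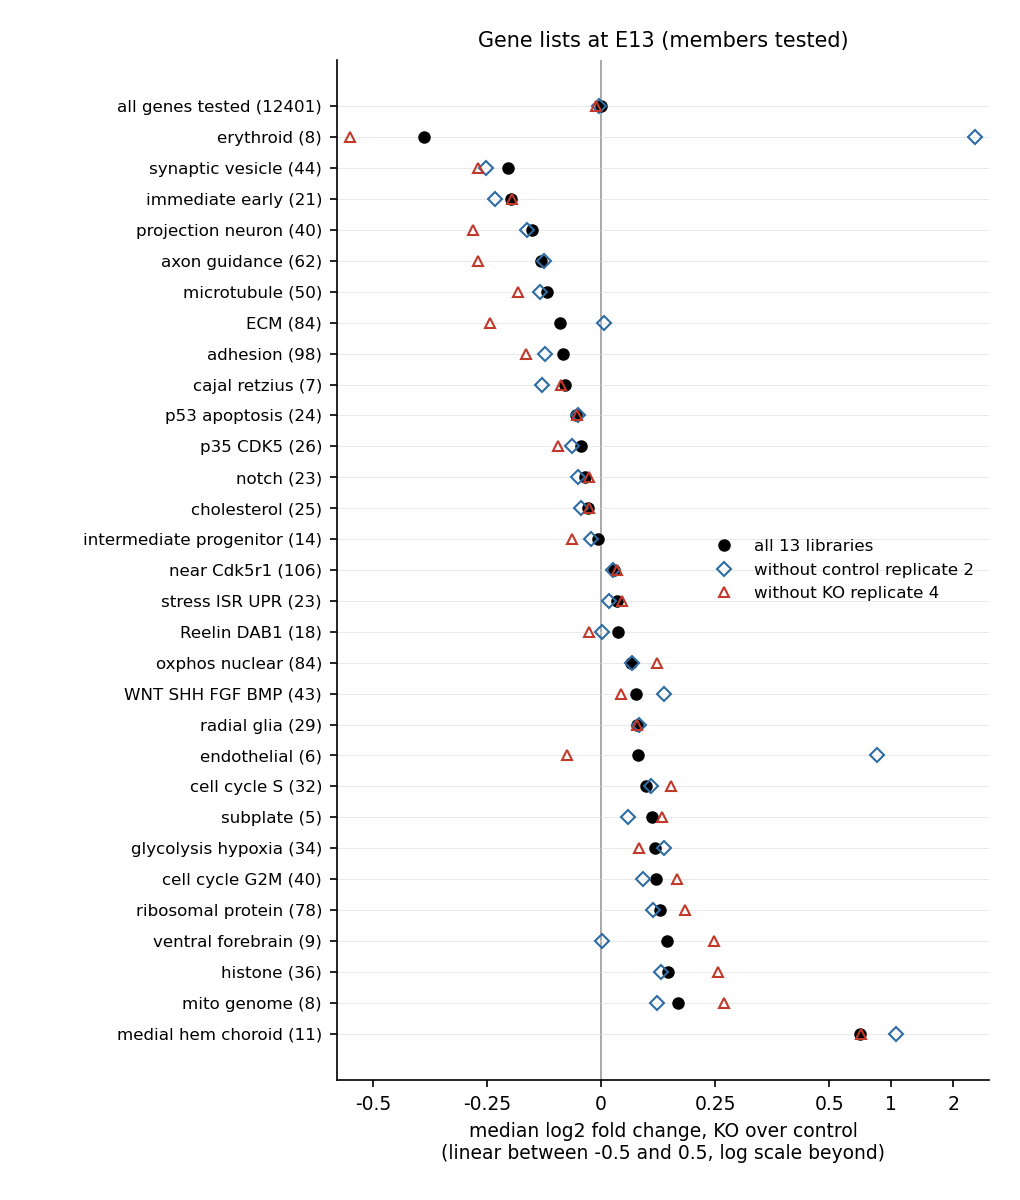
Median log2 fold change of KO over control for gene lists with at least 5 members tested, with all 13 libraries, without control replicate 2 and without KO replicate 4. The projection neuron, synaptic vesicle, microtubule and axon guidance lists lie below 0 and the radial glia, cell cycle and ribosomal protein lists above 0 in all 3 sets, whereas the erythroid and matrix lists change side without control replicate 2.

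The balance of the neuronal and the progenitor list was taken in each library as the log2 ratio of their sums. It was -0.54, -0.27 and -0.05 in the lowest, median and highest control library and -0.88, -0.52, -0.74, -0.22 and -0.47 in KO replicates 1 to 5. KO replicates 1 and 3 lay below each control library, KO replicate 4 lay above the control median, and control replicate 2 had -0.46. With this ratio as a covariate the medians were 0.05 for projection neuron genes, 0.00 for synaptic vesicle genes, -0.06 for microtubule genes, -0.03 for axon guidance genes, -0.05 for adhesion genes, 0.02 for glycolysis genes, -0.04 for S-phase genes, -0.05 for mitotic genes and 0.00 for ribosomal protein genes, while radial glia genes had 0.12. The ratio is made from members of 2 of these lists, and cell composition and a shift of expression within cells cannot be told apart with it. The fit with the ratio left Cdk5r1 at -1.35 (adjusted p = 0.944) and called 1 gene, the pseudogene Gm13394, higher.

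**Figure D4:**
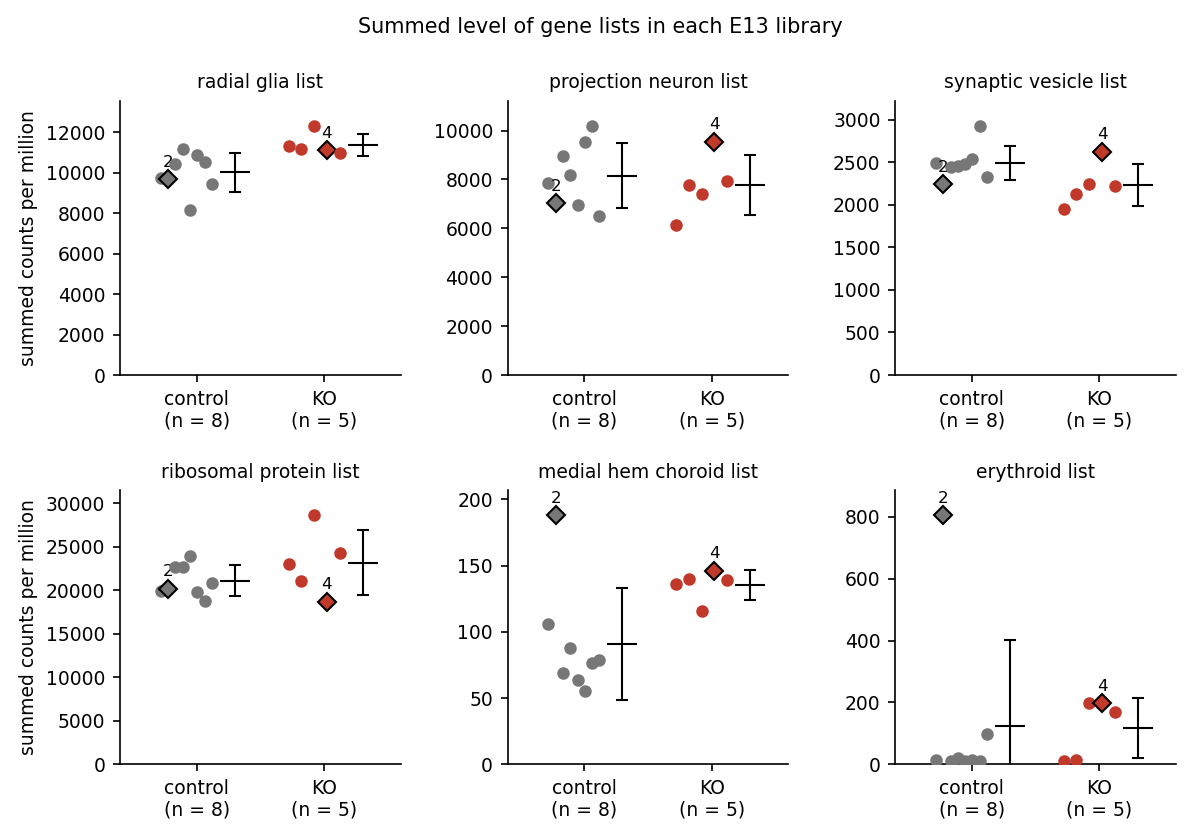
Summed level of 6 gene lists in each E13 library, in CPM, with the mean and SD beside the points and control replicate 2 and KO replicate 4 as diamonds. Each KO sum of the radial glia list lies above the control median of 10084, and control replicate 2 holds the highest cortical hem and erythroid sums, 188 and 805.

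Without KO replicate 4 the neuronal lists moved further down, to -0.28 for projection neurons, -0.27 for synaptic vesicles, -0.27 for axon guidance and -0.18 for microtubules, and ribosomal proteins further up, to 0.18. This library is the 1 of 13 whose removal gave the most calls, so the adjusted p-values of that set are conditioned on the choice. No gene named next passed in edgeR with all libraries. Wdr47, Riok3, Bdh1 and Ankrd6 were among the 36 genes called lower there. Of others under the rule for named genes, Sez6, a dendrite protein, had a log2 fold change of -0.73 in that set (adjusted p = 0.0243), Nptx1 of -1.43 (0.0282), Celsr3 of -0.73 (0.0451) and Lrrn3 of -0.84 (0.0486). Crmp1 stood at -0.57 (0.0477), Dtx1, a regulator of Notch signalling, at -0.87 (0.0310) and Tnc, which encodes the matrix protein tenascin C, at -1.78 (0.0310). For Sez6 and Tnc the value removed, 506 and 10.1 CPM, lay above each control library. L1cam and Dscam, adhesion molecules of growing axons singled out after their values were seen, stood at -0.92 (0.0282) and at -1.16 (0.0486). L1cam had 61.7, 92.9 and 110 CPM in control and 42.5, 49.0, 39.5, 114 and 62.6 CPM in KO replicates 1 to 5, so that KO replicate 4 alone lay above all control libraries. Of the 98 adhesion genes 4 were called lower in that set, where 0.291% of all genes were, and 0 with all libraries.

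Genes of the cortical hem and choroid plexus, the signalling centre and the epithelium at the medial edge of the cortex, had the highest median of all lists when all libraries were in, 0.70, and had 1.06 without control replicate 2 and 0.37 with the ratio covariate. Of 16 genes 11 were tested and 10 were higher, 2 at an unadjusted p under 0.05, where 3.06% of all genes were higher. Without control replicate 2 there were 4 of 10, where 3.39% of all genes were higher. They summed to 136, 140, 116, 146 and 139 CPM in KO replicates 1 to 5, each above the control libraries other than replicate 2, which ran from 55.1 to 106, and below control replicate 2 with 188. Rspo1, a WNT agonist, had 1.00, 3.50 and 18.1 CPM as the lowest, median and highest control value and 19.8, 17.6, 16.8, 11.1 and 11.7 CPM in KO (log2 fold change 1.26, SE 0.47), the highest control value being that of replicate 2. Wnt8b, a WNT ligand of the hem, had 7.74, 12.2 and 33.7 CPM in control, the highest again in replicate 2, and 37.9, 38.1, 27.2, 15.2 and 21.2 CPM in KO (log2 fold change 0.70, and 0.93 without that library). Lmx1a, a transcription factor of hem and roof plate, stood at 1.1 (SE 0.40), with at most 5.2 CPM in any library. Ttr, a carrier protein of choroid plexus and the most abundant member per length, had 3.37, 7.67, 6.47, 25.5 and 41.4 CPM in KO against a control median of 6.05. How far the medial edge was present in each sorted pool was not tested.

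Lists of other cell types were described in the same way. The erythroid list summed to 14.3 CPM at the control median and to 805 in control replicate 2, and to 11.2, 14.4, 200, 198 and 169 in KO replicates 1 to 5, of which replicates 3 to 5 lay above each control library but replicate 2, the others having 99.1 or less. Its median was -0.39 with all libraries and 2.55 without control replicate 2. Hbb-y, an embryonic globin and its most abundant member per length, had 189 CPM in control replicate 2. The endothelial list summed to 95.0 CPM in control replicate 2, to 24.5 or less in the other control libraries and to 13, 14.8, 22.6, 56.0 and 64.4 in KO, with Cldn5, a tight junction gene, as its most abundant member. Its median was 0.08 with all libraries, 0.85 without control replicate 2 and -0.07 without KO replicate 4. Mural cells (median 0.12), meninges (-0.37, and 0.64 without control replicate 2), late glia (Apoe alone tested, 0.03) and microglia (Cd68 alone tested, 0.10) had 4 or fewer members tested, and their lists summed to 81.1, 157, 62.8 and 34.4 CPM or less in each of the 13 libraries. Ganglionic eminence genes had a median of 0.14 (0.00 without control replicate 2) in 9 genes, Cajal-Retzius genes of -0.08 in 7 and subplate genes of 0.11 in 5, with 0 at an unadjusted p under 0.05 in the 3 lists and signs that changed in 1, 6 and 5 of 29 other settings. The part of these cells in the results above was not tested. Leaving out control replicate 2 cannot show it, since KO replicates 3 to 5 keep their higher erythroid sums in that set.

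Genes of the matrix between cells followed the same pair of libraries. The list of 84 matrix genes had a median of -0.09 with all libraries, 0.01 without control replicate 2 and -0.24 without KO replicate 4, and its sum was 5570 CPM in control replicate 2 and 5398 in KO replicate 4, where the other control libraries ran from 3861 to 4435 and the other KO libraries from 3838 to 4144. Sdc2, a heparan sulphate proteoglycan, stood at -0.55 (SE 0.21), and at -0.35 without control replicate 2. Immediate early genes, which cell dissociation can raise, had a median of -0.20 in 21 genes. Of these 3 were lower and 0 higher at the unadjusted threshold, where 4.19% of all genes were lower. Junb stood at -0.81 and Fosb at -1.32, both parts of the AP-1 transcription factor.

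Since the knockout allele brings its own stretch of chromosome 11 on both copies, genes within 5 Mb of Cdk5r1 were described as a list. Of 299 genes 106 were tested, with a median of 0.03 with and without control replicate 2, and 4 were higher and 5 lower at an unadjusted p under 0.05, beside 3.06% and 4.19% of all genes. Without control replicate 2 these were 3 higher and 9 lower, beside 3.39% and 5.21% of all genes. Sez6 (-0.46) and Wsb1, a subunit of a ubiquitin ligase (-0.35), were among the 5.

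The E13 differences were then looked up in the fits of the later ages, which have control libraries of their own. In KO against control, 218 genes rose (1.7%) and 262 fell (2.05%) of 12801 at E16, and 168 rose (1.28%) and 507 fell (3.87%) of 13087 at P0 (adjusted p under 0.05, edgeR). Of the 10 lower E13 genes with the smallest p, Cdk5r1 and Lrrn3 fell at E16, Lrrn3 by 0.55 on the log2 scale (adjusted p = 0.0465). Of the 10 higher ones Uncx rose at E16 (log2 fold change 4.95, adjusted p = 0.0250), and Bdh1, lower at E13, rose by 0.23 at P0 (adjusted p = 0.0364). Wdr47 stood at -0.32 at E16 and at 0.13 at P0, and Riok3 at -0.42 and 0.10, none of which passed. Of the genes with an unadjusted p under 0.05 and a lower level at E13, 47.9% of 509 had the same sign at E16 and 36.0% of 511 at P0, where over all genes the same sign was found in 50.4% of 11939 and 47.5% of 11930. The higher genes had the same sign in 48.3% of 356 and 46.7% of 353.

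Some lists had another sign at a later age and some kept theirs. Of all genes tested, 2.05% were called lower and 1.7% higher at E16, and 3.87% were called lower and 1.28% higher at P0. The counts of called members below stand beside these shares. Synaptic vesicle genes, at -0.20 at E13, had a median of 0.10 at E16 and 0.14 at P0, and projection neuron genes, at -0.15 at E13, had -0.35 at E16, with 6 of 40 called lower, and 0.10 at P0. Radial glia genes, at 0.08 at E13, had -0.20 at E16 and -0.51 at P0, with 2 of 29 and 11 of 28 called lower. S-phase and mitotic genes, at 0.10 and 0.12 at E13, both had -0.26 at E16. Adhesion genes, at -0.08 at E13, had -0.09 at E16 and -0.15 at P0, with 7 of 106 and 12 of 110 called lower. Matrix genes, at -0.09 at E13 (0.01 without control replicate 2), had 0.27 at E16, with 8 of 90 called higher and 1 lower. At P0 the matrix list had -0.25, with 16 of 89 called lower and 1 higher. The p35 and CDK5 list, at -0.04 at E13, had -0.08 and -0.11. The cortical hem and choroid plexus list, at 0.70 at E13, had 1.11 at E16, with 10 of 11 higher and 2 called, and -0.52 at P0. Lists of other cells moved beside it. At E16 mural genes had a median of 2.88 (7 of 7 higher), endothelial genes 1.43 (8 of 8) and ganglionic eminence genes 1.27 (18 of 19). At P0 these 3 lists had -1.01, -1.08 and -0.70. Erythroid genes had 1.01 at E16 and 0.03 at P0, and subplate genes -0.05 and -0.57. The part of these cells in the values of the later ages was not tested. The difference between ages was not tested for any list.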

How the data were processed

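The authors deposited 1 file per library with STAR counts of reads per gene, aligned to mm10 (GRCm38); the counts used were the deposited counts of column 2, which ignore strand, so reads of overlapping antisense genes are not separated. Of all E13 reads 28.4% were unmapped, 12.4% lay outside genes, 4.80% were ambiguous and 54.5% fell on genes. Of 53379 identifiers 53274 matched the annotation used for names and positions.

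The 3 E13 genotypes were fitted together in edgeR 4.0.16 (R 4.3.3; TMM, robust quasi-likelihood F test) on genes with a mean count over 10, and KO was set against control. Libraries needed 50% uniquely aligned reads and 100000 reads on genes, so 8 control, 6 Cdk5r1-MADM and 5 KO libraries were kept. P-values were adjusted over all genes (Benjamini-Hochberg). CPM (counts per 1e6) use the TMM-scaled total; the level per length divides by exon length. DESeq2 1.42.0, limma 3.58.1 (voom with quality weights) and the other settings of the closing section were alternatives, and exact permutation tests used scipy 1.17.1. The fits were tested on simulated data.

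Named genes were Cdk5r1, genes passing with or without control replicate 2, the 10 protein-coding genes with the smallest p in each direction, the p35 and CDK5 list, and in each other list up to 4 genes with the smallest p and the most abundant. The members and lists were chosen with earlier results of these data known.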

Additional observations from a re-analysis of the deposited data

Results flagged for a closer look

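In 118 groups of libraries, 15 held 1 library that stood far from the others, and chance gives about 1 in 20. The groups were the control or the KO libraries, taken for each list sum and for some of the named genes. All values are CPM, and the cause was not tested.

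Control replicate 2, whose Cdk5r1 goes against its label, stood above the other control libraries in the sums of the matrix list (5570), the cortical hem and choroid plexus list (188), the endothelial list (95.0) and the erythroid list (805). KO replicate 4 stood above the other KO libraries in the matrix list (5398) and the p53 and apoptosis list (1582) and below them in the protein-coding genes of the mitochondrial genome (9403).

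Control replicate 8, which had the highest Cdk5r1 level, stood high in the synaptic vesicle list (2927), the p53 and apoptosis list (1820) and Chchd4 (89.7), which encodes an import protein of mitochondria. KO replicate 3 stood high in radial glia genes (12330) and low in cholesterol synthesis genes (2931). Control replicate 6, the library with the fewest reads, stood high in microglia and macrophage markers (34.4), control replicate 9 in stress response genes (3568) and control replicate 1 in Lsamp (19.1).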

How the results depend on the processing

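The count of called genes, 0 with all libraries in edgeR, was 4 with DESeq2, 1 without a mean-count minimum, 1 with reads outside genes (their share) as covariate and 1 with the ratio of projection neuron to radial glia genes as covariate; it stayed 0 with limma voom, RLE factors, only the 13 libraries, the nearly empty mosaic libraries kept, no alignment minimum, and sex or mitochondrial class as covariate. Leaving out 1 library at a time gave 0 to 39 calls, 1 without control replicate 2 and 39 without KO replicate 4, and 44 without both. The 900 genes at an unadjusted p under 0.05 became 2048 without a mean-count minimum (6.28% of 32589 genes tested, where 900 was 7.26%), 635 with only the 13 libraries (5% being 608.45), 550 with the ratio as covariate, 657 (without KO replicate 1) to 1471 (without KO replicate 4) when 1 library was left out, and 1570 without both.

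The log2 fold change of Cdk5r1, -1.96 and not passing, ran from -2.23 (without KO replicate 4) to -1.75 (without control replicate 8) when 1 library was left out, and over all settings from -2.42 (no alignment minimum) to -1.35 (ratio as covariate). It passed without KO replicate 4 (-2.23) and with DESeq2 (-1.98). Adjusted p was also under 0.05 without control replicate 2 (-2.13) and without both (-2.39), but that library was picked by its Cdk5r1 level, so these p-values for Cdk5r1 follow from its removal. Chosen after seeing the data, DESeq2 and limma voom without control replicate 2 gave -2.13 and -2.30 for Cdk5r1, with the same condition on its p, and 9 and 2 calls; within the libraries of 1 mitochondrial class, Gm28438, which held all 5 KO and 5 of the 8 control libraries, there were 0 calls, 686 genes at an unadjusted p under 0.05 and -1.93 for Cdk5r1. The cause was not tested for any of these.

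With the replicate number as a replicate block (paired), 0 genes were called, 709 had an unadjusted p under 0.05 and Cdk5r1 stood at -1.87; replicate numbers did not pair, since 0 of 4 pairs were most alike within their number.

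Of 5593 values of 194 named genes under the alternatives, 5502 kept their size and call, 50 moved by more than the spread of the control libraries, 41 now passed and 0 passed with the other sign, a count that leaves aside changes of sign without passing. Of 1044 list medians 102 changed sign, most in lists near 0 or of outside cells. Counting error is largest in control replicate 6, with 1218697 reads on genes.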

Other observations

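Several gene groups have not been described above. Genes of WNT, SHH, FGF and BMP signalling had a median log2 fold change of 0.08 in 43 genes (0.14 without control replicate 2, below 0 within the libraries of 1 mitochondrial class), 3 higher and 0 lower at an unadjusted p under 0.05: Sfrp2, a secreted WNT modulator, at 0.34, Nr2f1, a factor of cortical arealisation, at 0.39 and Lrp5, a WNT coreceptor, at 0.45. Notch pathway genes outside the radial glia list had -0.04 in 23 genes (above 0 with limma voom). Of these 0 were higher and 3 lower at that threshold, among them Dner, a Notch ligand of neurons, at -0.37. Beside both lists, 3.06% of all genes were higher and 4.19% lower at that threshold. The p53 and apoptosis genes had -0.06 in 24, cholesterol genes -0.03 in 25 and stress response genes 0.03 in 23, the last 2 with signs that changed in 2 and 4 of 29 other settings.

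Replication-dependent histone genes, whose transcripts mostly lack a polyA tail, had a median of 0.15 in 36 genes, and -0.16 with the ratio of neuronal to progenitor genes as covariate. The 8 tested genes of the mitochondrial genome had 0.17, with mt-Nd6 at 0.64 (SE 0.22). mt-Nd3 had reads in 3 control libraries, replicates 3, 5 and 6, and next to none in the others, which instead had reads on Gm28438, so the KO libraries and 5 control libraries were of 1 class.

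Control replicate 2, labelled control and with Cdk5r1 at 14.5 CPM, also held 18.1 CPM of Rspo1 and 33.7 CPM of Wnt8b, within the KO ranges of 11.1 to 19.8 and 15.2 to 38.1. Its log2 ratio of projection neuron to radial glia genes, -0.46, lay within both groups. The cortical hem and choroid plexus sum of this library, 188, lay above each KO library, the highest of which had 146. Wdr47, Riok3 and Six5 did not overlap between the groups with this library counted as control. Its place on the control side for these genes follows from that choice and says nothing further about its label.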
